A study of Drosophila melanogaster with 12 samples.

Results

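The 9 genes described here encode ligands, the receptor, a ligand-processing protease, a transcription factor and feedback inhibitors of the epidermal growth factor receptor (EGFR) pathway. They were chosen by name, from the gene symbols in the expression tables, out of 9981 genes measured in adult *Drosophila* intestine. The ligands are *vn* (FBgn0003984), *spi* (FBgn0005672) and *Krn* (FBgn0052179), the protease is *rho* (FBgn0004635) and the receptor is *Egfr* (FBgn0003731). The transcription factor is *pnt* (FBgn0003118), and the feedback inhibitors are *sty* (FBgn0014388), *aos* (FBgn0004569) and *kek1* (FBgn0015399). In the gene annotation *vn*, *Krn*, *rho*, *aos* and *sty* lie on chromosome arm 3L, *spi* and *kek1* on 2L, *Egfr* on 2R and *pnt* on 3R.

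In the first of the 2 experiments, *myo1A > dMPC1-RNAi* animals were compared with *myo1A > mCherry-RNAi* controls. The *myo1A-GAL4* driver acts in enterocytes, the absorptive cells of the intestine, *dMPC1* (Mpc1 in the files) encodes a subunit of the mitochondrial pyruvate carrier, and mCherry is a fluorescent protein that flies lack. Both RNAi genotypes carried *Tub-GAL80ts*, which held the RNAi off until adulthood, and RNA was taken after 7 days of RNAi induced in adults aged 4 to 5 days. For its stained intestines the paper describes a shift of such animals to a higher temperature. In the second experiment, *dMPC1* mutants transheterozygous for the deletion alleles *dMPC1 1* and *dMPC1 2* were compared with flies homozygous for a precise excision of a *P* element, all 7 to 10 days old, so that the deletions were carried by every cell and through development. The labels give the strain of all samples as w1118. Each RNAi library was made from pooled, dissected whole intestines, which hold stem cells, enteroblasts, enteroendocrine cells and visceral muscle as well as enterocytes. Values were available here for 8 libraries, namely all 3 replicates of *myo1A > dMPC1-RNAi*, 2 of *myo1A > mCherry-RNAi* (replicates 1 and 3), 2 of the mutants (replicates 1 and 2) and 1 of the precise excision control (replicate 2).

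EGFR signaling is one of the routes by which the fly intestine controls division of its stem cells. Spitz and Keren are made as membrane-bound precursors that rhomboid proteases cut to release active ligand, whereas Vein is secreted without that step and is produced in the gut mainly by visceral muscle. The ligands activate Egfr on stem cells and other cells, and the signal passes through Ras and MAP kinase to the ETS transcription factor Pointed. Argos binds Spitz outside the cell, Kekkon1 binds the receptor, and Sprouty acts inside the cell. All 3 inhibitors are induced by the pathway in other fly tissues and dampen it.

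Values are normalized counts, that is, reads of a gene divided by 1 scaling factor per library. The libraries held 7362983 to 21918521 reads in genes, with the fewest in mutant replicate 2 and the most in mutant replicate 1. The target gene *Mpc1* stood at 3114 and 2936 normalized counts in the mCherry-RNAi libraries against 841, 803 and 820 with *dMPC1-RNAi*, and fell from 1997 to 5.31 and 13.7 between the precise excision library and the mutants. Markers of the enterocyte, such as its digestive enzymes, were present in every library. Several marker lists for other cell types differed between libraries. Of 22 egg chamber genes, whose summed level was 456 normalized counts in *dMPC1-RNAi* replicate 1 and 79.7 to 225 in the other libraries, 3 to 11 were at 0 in each library. The precise excision library had the highest summed level of hemocyte, fat body and visceral muscle markers.

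**Figure D1:**
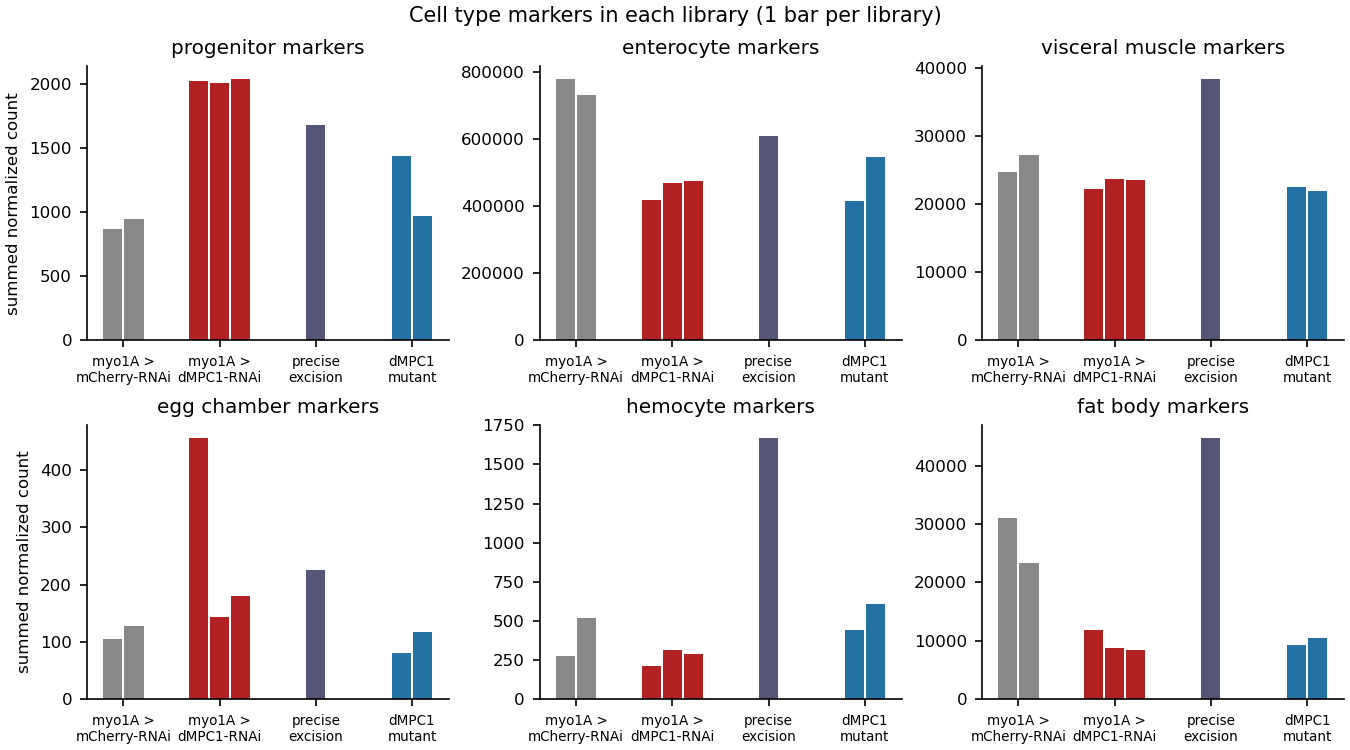
Summed normalized count (vertical axes, linear, from 0) of 6 lists of cell type markers, with 1 bar per library in the 4 groups on the horizontal axis. Progenitor markers were at 2005 to 2034 with *dMPC1-RNAi* and at 865 and 945 in mCherry-RNAi controls, and hemocyte markers reached 1669 in the precise excision library.

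Which genes of the EGFR pathway respond to loss of the pyruvate carrier in enterocytes was addressed first. The protease gene *rho* and the transcription factor gene *pnt* rose in *myo1A > dMPC1-RNAi* intestines, by 8.31 times and 1.74 times in the group means. *sty* was 1.48 times higher with a small p-value but did not reach the required fold change, and *kek1* was 3.6 times higher at a level too low for the test. The ligand genes *vn*, *spi* and *Krn*, the receptor gene *Egfr* and the antagonist gene *aos* did not pass. To pass, a gene needed a limma p, adjusted by the Benjamini-Hochberg method, of 0.01 or less together with a difference of 0.6 or more in either direction on log2(normalized count + 1). Of the 9 genes 8 had the mean of 10 normalized counts needed for testing, and 2 of these 8 passed, both higher. Over all 8921 genes tested in this comparison, 7.03% passed as higher and 6.71% as lower. These p-values rest on the spread between the 5 libraries of the comparison, which limma combines with the spread of all genes tested. A gene's own spread had 3 degrees of freedom, and that taken from all genes had 3.63. The RNA came from whole intestines, so a change in the number of cells of one type and a change in RNA per cell cannot be told apart.

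Among the ligand genes, *spi* and *Krn* were the most abundant. Per kilobase of merged exons, their control levels were 269 ± 5.73 and 180 ± 15.0 normalized counts (SD, n = 2), against 9.30 ± 3.69 for *vn*. The EGF ligand gene *spi*, which encodes a TGF-alpha-like precursor, had 482 and 497 normalized counts in the mCherry-RNAi libraries and 633, 464 and 518 with *dMPC1-RNAi*. The groups overlapped, with 1 *dMPC1-RNAi* library below both controls and the other two above them. The log2 fold change of *spi* was 0.12 (95% interval −0.21 to 0.46, adjusted p = 0.522 from limma).

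The related ligand gene *Krn* had 229 and 258 normalized counts in controls and 286, 275 and 262 with *dMPC1-RNAi*. All 3 *dMPC1-RNAi* libraries were above both controls, but the lowest of them exceeded the higher control by a few counts only. The log2 fold change was 0.17 (95% interval −0.08 to 0.43, adjusted p = 0.242 from limma). Exons of *Krn* overlap those of *Ndfip* on the same strand in the annotation, so reads in the shared part may be assigned to either gene.

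The gene for the neuregulin-like ligand Vein, *vn*, had 35.1 and 62.4 normalized counts in controls, from 32 and 60 reads. With *dMPC1-RNAi* it had 73.2, 75.8 and 76.8. The *dMPC1-RNAi* libraries lay close together and above both controls, whereas the controls differed from each other by more than the gap between the groups. The log2 fold change of *vn* was 0.67 (standard error 0.25, 95% interval 0.07 to 1.28), and it did not pass (adjusted p = 0.0822 from limma). Visceral muscle is the cell type in which *vn* is chiefly made. Its markers summed to 24724 and 27166 normalized counts in controls and to 22227 to 23599 with *dMPC1-RNAi*. The part of visceral muscle in the level of *vn* was not tested.

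The protease gene *rho* had the largest change of the 9 genes. Rhomboid cuts Spitz and Keren in the secretory pathway. Its transcript had 6.58 and 21.8 normalized counts in the mCherry-RNAi libraries, from 6 and 21 reads, and 86.9, 138 and 129 with *dMPC1-RNAi*, from 95, 144 and 158 reads. Every *dMPC1-RNAi* library was above every control by several times, and the controls also differed from each other. The group means were 14.2 ± 10.8 (SD, n = 2) and 118 ± 27.4 (SD, n = 3), and the log2 fold change was 3.15 (standard error 0.47, 95% interval 2.03 to 4.27, adjusted p = 0.00373 from limma). The call was lost without mCherry-RNAi replicate 1 (log2 fold change 2.35, adjusted p = 0.0159 from limma) and without *dMPC1-RNAi* replicate 2 (0.0212) or replicate 3 (0.0176), with the direction kept. *rho* was lowest within its group in *dMPC1-RNAi* replicate 1, the library with the highest egg chamber markers, and without that library the adjusted p from limma was 0.000576.

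The receptor gene *Egfr* had 547 and 500.1 normalized counts in controls and 479, 457 and 436 with *dMPC1-RNAi*. It was the only one of the 8 tested genes with a lower mean in the *dMPC1-RNAi* group, and the groups did not overlap. The log2 fold change was −0.19 (standard error 0.09, 95% interval −0.42 to 0.03, adjusted p = 0.153 from limma), so the interval reaches neither a 0.6 fall nor much above 0. Among the 8 tested genes 5 had all *dMPC1-RNAi* libraries above both controls (*vn*, *Krn*, *rho*, *sty* and *pnt*), a pattern shown by 30.8% of all genes tested, and *Egfr* was the 1 with all of them below, which 31.8% of all genes showed.

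*pnt*, the gene for the ETS activator that carries the EGFR signal to the genome, had 544 and 559 normalized counts in controls and 976, 982 and 920.0 with *dMPC1-RNAi*. The libraries within each group lay close together, and the groups stood well apart. The means were 551 ± 11.1 (SD, n = 2) and 959 ± 34.2 (SD, n = 3), and the log2 fold change was 0.80 (standard error 0.08, 95% interval 0.60 to 0.99, adjusted p = 0.000917 from limma). With only 1 control library left, the call was lost (adjusted p from limma of 0.0213 without mCherry-RNAi replicate 1 and 0.0155 without replicate 3), while the log2 fold change stayed between 0.78 and 0.83 in every such repeat. The call held without any one *dMPC1-RNAi* library.

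*sty*, the gene for the intracellular inhibitor Sprouty, had 456 and 501 normalized counts in controls and 772, 679.7 and 677 with *dMPC1-RNAi*. All 3 *dMPC1-RNAi* libraries were above both controls. The means were 479 ± 32.0 (SD, n = 2) and 709.7 ± 54.0 (SD, n = 3). Its adjusted p of 0.00701 from limma was under the threshold, and its log2 fold change of 0.57 (standard error 0.10, 95% interval 0.33 to 0.81) was just under 0.6, so it was not counted as changed.

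The gene for the secreted antagonist Argos, *aos*, had 34.0 and 85.3 normalized counts in controls and 61.3, 71.0 and 63.7 with *dMPC1-RNAi*. The *dMPC1-RNAi* libraries all fell between the 2 controls, whose difference set the width of the interval. The log2 fold change was 0.27 (standard error 0.36, 95% interval −0.60 to 1.14, adjusted p = 0.597 from limma), and without mCherry-RNAi replicate 1 it was −0.38.

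*kek1*, which encodes a leucine-rich repeat membrane protein that inhibits Egfr, was the least abundant of the 9 genes in both RNAi groups, also per kilobase. It had 2.19 and 5.20 normalized counts in controls, from 2 and 5 reads, and 15.5, 9.60 and 14.7 with *dMPC1-RNAi*, from 17, 10 and 18 reads. The groups did not overlap. With no filter on low values the log2 fold change was 1.66 (standard error 0.44) and did not pass (adjusted p = 0.0311 from limma).

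**Figure D2:**
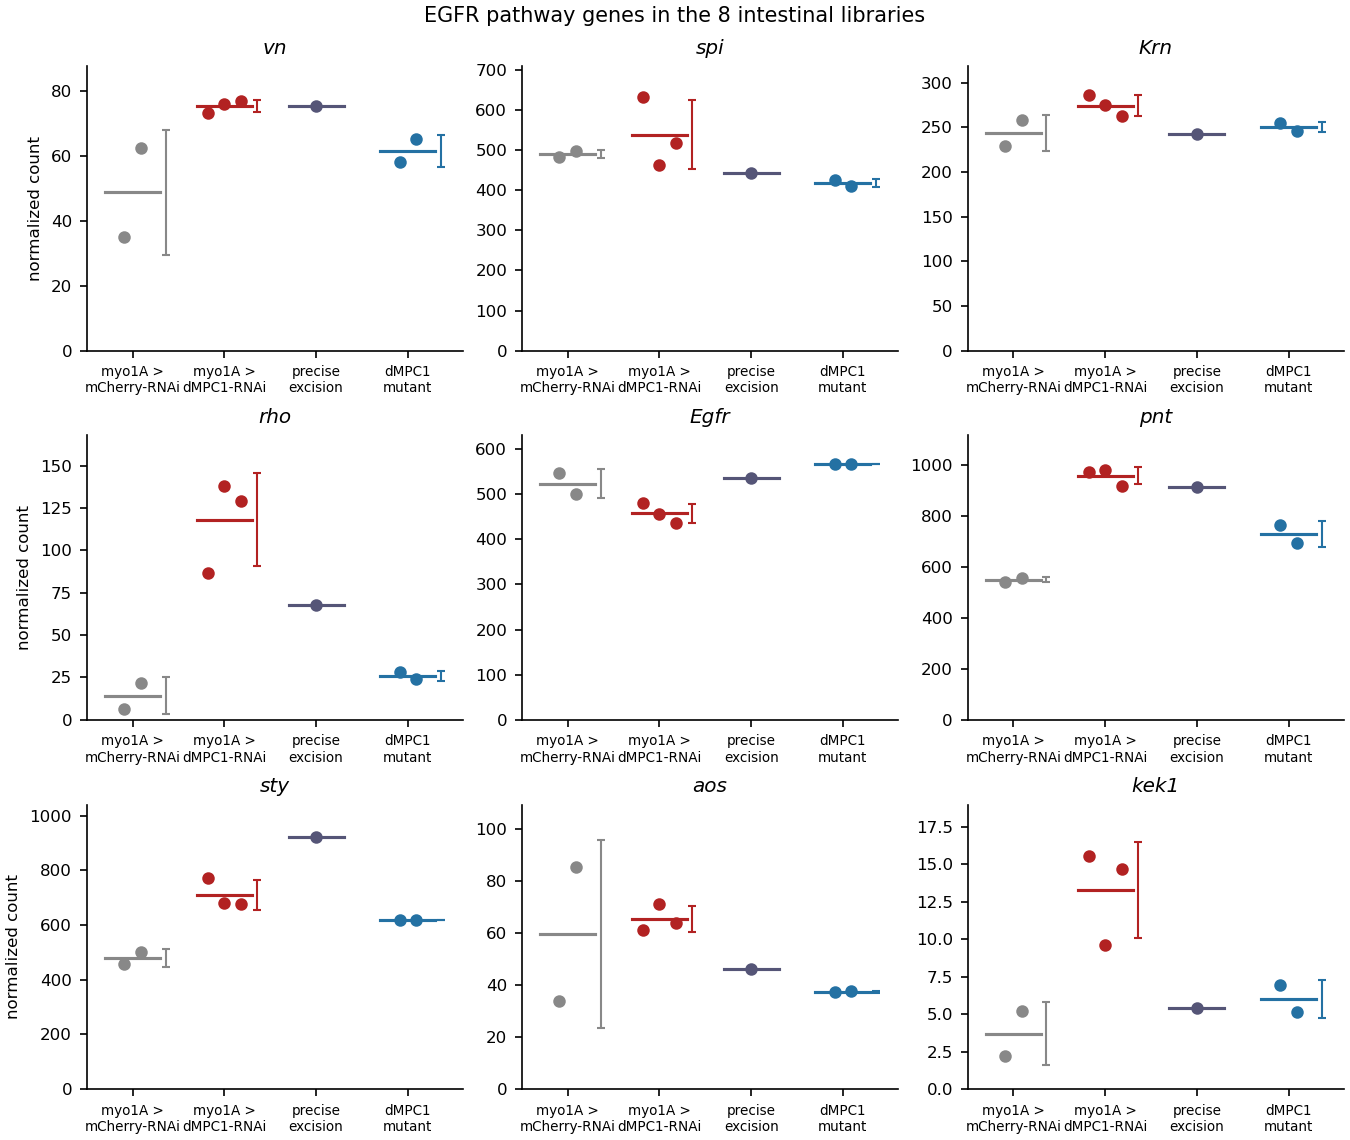
Normalized count (vertical axes, linear, from 0) of the 9 genes in the 8 libraries, grouped on the horizontal axis. Each point is 1 library, horizontal lines are group means and bars beside them are 1 SD where a group has more than 1 library. *rho* and *pnt* in the *dMPC1-RNAi* group (86.9 to 138 and 920.0 to 982) stand above every mCherry-RNAi library, whereas *spi* and *aos* overlap.

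Intestinal progenitor markers were higher with *dMPC1-RNAi*. The 9 markers, among them *Dl*, the Notch ligand of stem cells, and the transcription factor genes *esg* and *Sox21a*, summed to 865 and 945 normalized counts in mCherry-RNAi controls and to 2005 to 2034 with *dMPC1-RNAi*, and none was at 0 in any library. Of the 9, 5 rose (*Dl*, *E(spl)m3-HLH*, *sc*, *Sox100B* and *Sox21a*) and none fell, with a median log2 fold change of 1.37 over the 9 against −0.01 over all genes. Beside the counts given here for each marker list, 7.03% of all genes tested rose and 6.71% fell. The 8 enterocyte markers summed to 778194 and 730611 in controls and to 419564 to 474501 with *dMPC1-RNAi*, mostly from protease genes. Of the 8, 2 (*Jon99Ciii* and *betaTry*, both serine protease genes) fell. The other 6 did not pass, among them *Myo31DF* (log2 fold change −0.10) and *nub*, which was higher (0.52). Over the 8 markers, 2 log2 fold changes were above 0 and 6 below. Enteroendocrine markers summed to 4351 and 4425 in controls and to 5692 to 6251 with *dMPC1-RNAi*, and 2 of the 9, the peptide hormone genes *AstA* and *CCHa1*, rose (log2 fold change 1.14 and 2.00). Fat body markers summed to 31099 and 23414 in controls and to 8469 to 11842 with *dMPC1-RNAi*, and 4 of the 5 tested fell (the yolk protein genes *Yp1* and *Yp2*, the collagen gene *Cg25C*, and *Apoltp*), with a median log2 fold change of −1.23. Of the visceral muscle markers *sls* fell, and of the egg chamber markers *piwi* rose. The part of any of these lists in the levels of *rho*, *pnt* and *sty* was not tested.

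The second question was whether the same genes differ in *dMPC1* mutants. None of the 8 tested genes passed in mutants against the precise excision library, in limma, edgeR or DESeq2, while 3 of the 8 (*rho*, *sty* and *pnt*) had an unadjusted p under 0.05 in limma. Over all 8794 genes tested, 3.7% passed in either direction, 1.31% as higher and 2.39% as lower. An unadjusted p under 0.05 in limma was found for 2088 of these 8794 genes. The precise excision group is a single library, which was assumed to vary like the mutants, and the intervals of the comparison therefore rest on few libraries. A gene's own spread had 1 degree of freedom here, and that taken by limma from all genes had 6.3. *rho*, *sty* and *pnt* were all lower in both mutants than in that library. Counting only order, 6 of the 8 genes were lower in both mutants and 2 higher, against 38.9% and 41.2% of all genes.

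*rho* had 67.8 normalized counts in the control library, while the mutants had 28.2 and 23.9, from 63, 53 and 14 reads. Its log2 fold change was −1.35 (standard error 0.35, 95% interval −2.16 to −0.54, adjusted p = 0.0550 from limma). *sty* had 922 normalized counts in the control and 617 and 619 in mutants, with a log2 fold change of −0.58 (standard error 0.13, 95% interval −0.88 to −0.27, adjusted p = 0.0373 from limma). The 2 mutants were nearly equal for *sty* although mutant replicate 1 had the most reads of all libraries and replicate 2 the fewest. *pnt* had 915 normalized counts against 767 and 695, a log2 fold change of −0.33 (95% interval −0.65 to −0.0025, adjusted p = 0.208 from limma).

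The ligand, receptor and antagonist genes lay closer to the control. *vn* had 75.3 normalized counts in that library, and the mutants had 57.9 and 65.0 (log2 fold change −0.29, 95% interval −0.89 to 0.31). *spi* had 442 against 424 and 411 (−0.08, −0.41 to 0.25). *Krn* had 243 against 255 and 246 (0.04, −0.33 to 0.41). These intervals leave room for a change of about the threshold size in *vn* but not in *spi* or *Krn*. *Egfr* had 535 normalized counts against 566.0 and 566.2 (log2 fold change 0.08, 95% interval −0.23 to 0.40). *aos* had 46.3 against 37.2 and 37.6 (−0.30, −1.05 to 0.45), and *kek1* had 5.38 against 6.91 and 5.13, from 5, 13 and 3 reads, which cannot show a difference at this depth.

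Visceral muscle markers summed to 38306 normalized counts in the control but to 22539 and 21974 in mutants, and 4 of the 13 (*Mlc2*, *Act57B*, *Mlp60A* and *Prm*) fell, with a median log2 fold change of −0.75 over the 13. Over all genes tested in mutants, 1.31% rose and 2.39% fell. Hemocyte markers summed to 1669 against 444 and 606, and 3 of the 7 (*NimC1*, *PPO1* and *PPO2*) fell, while all 7 had a log2 fold change below 0 (median −1.55). Fat body markers summed to 44776 against 9341 and 10547, and of the 6 tested 4 fell (*Yp1*, *Yp2*, *Yp3* and *Cg25C*) and 1 rose (*Lsp2*), with a median of −1.82. Of the enterocyte markers *Amy-p* rose and *lambdaTry* fell. Progenitor markers summed to 1681 against 1434 and 970, with none of the 8 tested passing in limma and a median log2 fold change of −0.36. The part of these lists in the mutant values of *rho*, *sty*, *pnt* and *vn* was not tested.

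**Figure D3:**
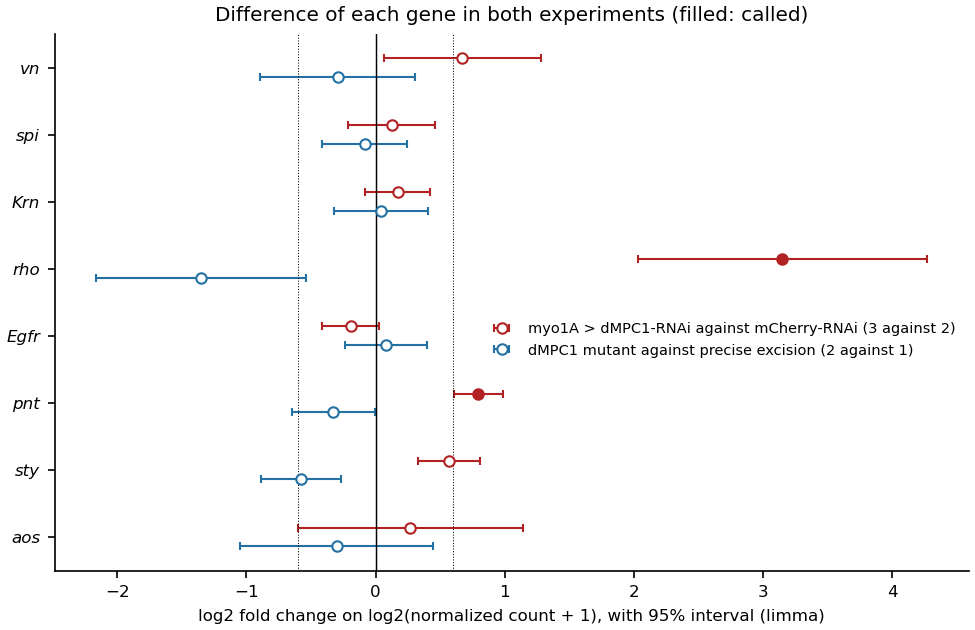
Log2 fold change on log2(normalized count + 1) (horizontal axis) of the 8 tested genes in both experiments, with 95% limma intervals. Filled points passed the test, and dotted lines mark 0.6 in either direction. *rho* lies at 3.15 with RNAi and at −1.35 in mutants, and only *rho* and *pnt* with RNAi are filled.

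Because a pass in one experiment alone does not show a difference, the RNAi effect minus the mutant effect was tested in 1 limma fit of all 8 libraries. *rho*, *pnt* and *sty* differed between the experiments, 3 of the 8 tested genes, all with a higher RNAi effect, against 4.78% of 8916 genes in that direction, 3.94% in the other and 8.71% in either. The difference in log2 fold change was 4.50 for *rho* (standard error 0.73, 95% interval 2.80 to 6.20, adjusted p = 0.00561 from limma). It was 1.12 for *pnt* (standard error 0.14, 95% interval 0.80 to 1.45, adjusted p = 0.00221 from limma) and 1.14 for *sty* (standard error 0.16, 95% interval 0.78 to 1.51, adjusted p = 0.00328 from limma). The remaining genes did not pass, with differences of 0.96 for *vn* (adjusted p = 0.126), 0.57 for *aos* (0.521), −0.28 for *Egfr* (0.223), 0.21 for *spi* (0.543) and 0.13 for *Krn* (0.625), all from limma. The 95% interval for *vn* was 0.05 to 1.88.

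These differences rest on single libraries in part. *rho* no longer passed without mutant replicate 1 or 2, or without *dMPC1-RNAi* replicate 2 or 3 (differences of 4.37 to 4.61). *sty* no longer passed without mutant replicate 2 (1.15) or without either mCherry-RNAi library (1.07 and 1.21). *pnt* no longer passed without either mCherry-RNAi library (1.10 and 1.14). The sole precise excision library enters every one of these values and could not be left out.

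**Figure D4:**
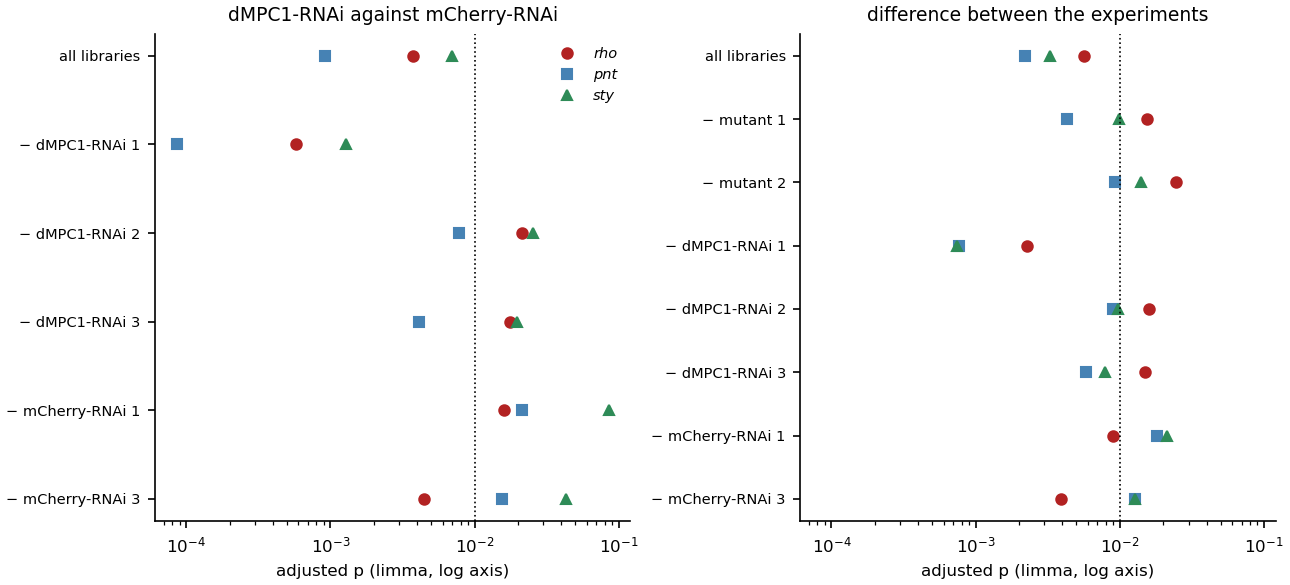
Adjusted p from limma (horizontal axes, log scale) of *rho*, *pnt* and *sty* with all libraries and with each library left out in turn (rows), for the RNAi comparison (left) and the difference between the experiments (right). The dotted line marks 0.01. Without *dMPC1-RNAi* replicate 1 all 3 genes move left, and *pnt* crosses the line only when an mCherry-RNAi library is left out.

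Levels were set side by side across the experiments because the deposited scaling factors of all 8 libraries lay −0.0037 to 0.0039 on the log2 scale from median-of-ratios factors computed here over the 8 libraries together. The 2 control genotypes themselves stood at different levels of *rho*, *pnt* and *sty*, and the 2 mutants lay between them. For *rho* and *pnt* the order of the means from high to low was *dMPC1-RNAi*, precise excision, mutant and mCherry-RNAi. *rho* in the precise excision library, at 67.8, was above both mCherry-RNAi libraries and below the lowest *dMPC1-RNAi* library, and the same holds for *pnt* at 915. For *sty* and *vn* the precise excision library led, followed by *dMPC1-RNAi*, mutant and mCherry-RNAi, and for *vn* it lay within the range of the *dMPC1-RNAi* libraries. The ranges of the mutants and the mCherry-RNAi controls did not overlap for *rho*, *pnt* or *sty*. *Egfr* had the order mutant, precise excision, mCherry-RNAi and *dMPC1-RNAi*, with the precise excision value within the range of the mCherry-RNAi libraries. Genotype, age, temperature regime and time of RNAi differ between the experiments, so their parts in these levels cannot be told apart.

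The levels of the other genes of the pathway were read from 5 lists of 61 entries, of which 54 were found. With *dMPC1-RNAi*, 7 of the 49 tested rose and 1 fell, while 41 did not pass, against 7.03% higher and 6.71% lower over all genes. Their median log2 fold change was 0.10, against −0.01 over all genes. In mutants 0 of 47 passed in limma, edgeR or DESeq2, against 3.7% of all genes that passed in limma. An unadjusted p under 0.05 in limma was found for 9 of the 47 and for 2088 of all 8794 genes tested.

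Of 4 tested genes for a further ligand or for the processing and export of ligands, 1 rose, against 7.03% of all genes. *rho-4*, another rhomboid protease gene, had 952 and 980.4 normalized counts in controls and 2004, 1712 and 1831 with *dMPC1-RNAi* (log2 fold change 0.93 ± 0.09 SE, limma adjusted p = 0.000870). As with *rho*, it was lower in both mutants, at 1370.1 and 1121, than in the precise excision library, at 1949, and its difference between the experiments passed (1.59, adjusted p = 0.00179 from limma). Both calls were lost without either mCherry-RNAi library (adjusted p from limma of 0.0107 to 0.0199). *S*, which encodes the cargo receptor Star that exports Spitz, did not pass (log2 fold change 0.24, adjusted p = 0.175 from limma). A further rhomboid gene, *stet*, chosen for mention after its values were seen, was below the level tested, at 1.10 and 1.04 normalized counts in controls and 13.7, 9.60 and 8.99 with *dMPC1-RNAi*.

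Among 12 genes of the route from receptor to MAP kinase, the adaptor gene *Shc* rose and the phosphatase gene *csw* fell. Over all genes, 7.03% rose and 6.71% fell. *Shc* had 221 and 253 normalized counts in controls and 409.8, 371 and 399.5 with *dMPC1-RNAi* (log2 fold change 0.73, adjusted p = 0.00338 from limma). *csw*, the SHP-2 homolog, had 928 and 889.9 in controls and 554, 569 and 494 with *dMPC1-RNAi* (−0.75, adjusted p = 0.00201 from limma). Both also differed between the experiments (1.14, adjusted p = 0.00498, and −0.94, adjusted p = 0.00713, from limma). In the RNAi comparison both calls were lost without either mCherry-RNAi library, with adjusted p from limma of 0.0482 and 0.0216 for *Shc* and 0.0361 and 0.0255 for *csw*. That of *Shc* was also lost without *dMPC1-RNAi* replicate 2 (0.0139) or 3 (0.0154) and with replicate number as a block (0.0124), and that of *csw* after scaling to library totals (0.0127). The difference between the experiments no longer passed without any one library other than *dMPC1-RNAi* replicate 1 for *csw* (0.0117 to 0.0402), and other than that library and mutant replicate 1 for *Shc* (0.0120 to 0.0278).

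Of 13 tested genes listed as inhibitors of EGFR and MAP kinase signaling, 1 rose, against 7.03% of all genes. *edl*, whose product antagonizes ETS proteins, had 97.5 and 88.4 normalized counts in controls and 156, 179.5 and 198 with *dMPC1-RNAi* (log2 fold change 0.92, adjusted p = 0.00429 from limma). *edl* no longer passed without any one library other than *dMPC1-RNAi* replicate 1 (adjusted p from limma of 0.0165 to 0.0457) and with replicate number as a block (0.0184). *Mkp3*, which encodes a phosphatase of ERK, had 213 and 179 in controls and 431, 289.9 and 342 with *dMPC1-RNAi*, a difference of 0.84 on the log2 scale that missed the threshold (adjusted p = 0.0138 from limma).

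Of 7 ETS factor and response genes, *Ets21C* and *stg* rose, against 7.03% of all genes. *Ets21C*, an ETS factor gene induced by stress signaling, had 87.7 and 109 normalized counts in controls and 419, 387 and 386 with *dMPC1-RNAi*. Its log2 fold change was 2.01 (adjusted p = 0.000208 from limma), and the call held without any one library. Its exons overlap *nAChRbeta3* on the opposite strand. In mutants *Ets21C* had 409 and 183 normalized counts against 204 in their control and did not pass (log2 fold change 0.42). Its difference between the experiments did not pass either (1.59). *stg*, the Cdc25 phosphatase gene that drives entry into mitosis, had 4.38 and 8.32 in controls and 82.3, 39.4 and 46.6 with *dMPC1-RNAi* (2.94, adjusted p = 0.00303 from limma). The mutants had 9.57 and 6.84 normalized counts of *stg*, below the 26.9 of their control, and the gene differed between the experiments (4.55, adjusted p = 0.00462 from limma). Its RNAi call was lost without either mCherry-RNAi library or without *dMPC1-RNAi* replicate 2 or 3, with adjusted p from limma of 0.0117 to 0.0318, and its difference between the experiments without any one library other than *dMPC1-RNAi* replicate 1 (0.0103 to 0.0207).

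Of 13 tested genes for other receptor tyrosine kinases and their ligands, 2 rose, against 7.03% of all genes. Both encode ligands of the PDGF- and VEGF-receptor homolog Pvr. *Pvf1* had 290.4 and 350.4 normalized counts in controls and 1378, 891 and 1004 with *dMPC1-RNAi* (log2 fold change 1.75, adjusted p = 0.00122 from limma). *Pvf2* had 14.2 and 17.7 in controls and 62.2, 55.7 and 59.6 with *dMPC1-RNAi* (1.83, adjusted p = 0.00144 from limma), and its exons overlap *Ugt307A1* on the opposite strand. Both calls with RNAi were lost without either mCherry-RNAi library. That of *Pvf2* was also lost without *dMPC1-RNAi* replicate 2 (adjusted p = 0.0108 from limma). Neither gene passed in mutants (log2 fold change 0.09 for *Pvf1* and 0.78 for *Pvf2*). Nor did their differences between the experiments pass (1.66 and 1.05).

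**Figure D5:**
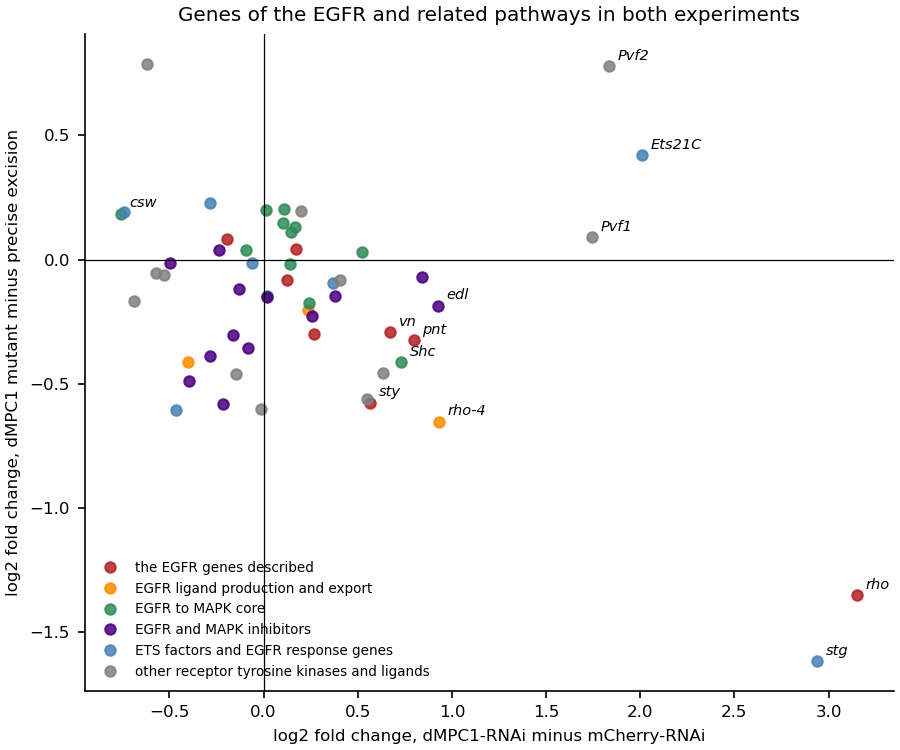
Log2 fold change with *dMPC1-RNAi* (horizontal axis) and in *dMPC1* mutants (vertical axis), both on log2(normalized count + 1), for the genes described and the 5 pathway lists, with 1 point per gene tested in both. *rho* and *stg* lie at 3.15 and 2.94 on the horizontal axis and below 0 on the vertical axis, and *Ets21C*, *Pvf1* and *Pvf2* lie above 0 on both. None of these genes passed in mutants.

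The genes whose levels over the 8 libraries were most like those of *rho* were *CG15387*, *betaTub60D* and *ITP*, with Pearson r of 0.985, 0.984 and 0.977 on log2(normalized count + 1). For *pnt* they were *CG6967*, *CG13488* and *wdp*, with r of 0.993, 0.992 and 0.987. These values describe 8 libraries in 4 groups, which share the group differences, and were picked as the highest among all genes.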

How the data were processed

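Intestinal RNA of the RNAi and mutant experiments was sequenced by the authors as single reads and aligned to dm3. USeq and DESeq are named in the paper, Novoalign and DESeq in the submitters' processing notes. Not given in the sources used here were tool versions, the assignment of reads to genes and the use of strand. The deposited signal is a gene's count over a size factor, 1 per library, set by the authors. In each library 100% of the 9981 values came out as whole reads within 0.001 of a read. Libraries held 7362983 to 21918521 reads in genes. Of the 12 labelled libraries, 8 were analysed and 4 were not analysed here. The authors' own fold changes and p-values in the tables were not used.

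limma 3.58.1 (R 4.3.3) with a mean-variance trend was run on log2(normalized count + 1) for genes with a mean of at least 10, which understates the change of low genes. As in the paper's methods, a call needed a p of 0.01 or less after Benjamini-Hochberg adjustment and 0.6 or more on the log2 scale in either direction, and the interaction the same adjusted p alone. edgeR 4.0.16 and DESeq2 1.42.0 on the recovered reads, other pseudocounts, filters and scalings, the replicate block and leaving out each library were alternatives. The limma and edgeR steps were tested on simulated data, and the DESeq2 step was not. No 2 libraries of a group agreed within sampling noise.

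The 9 genes and all lists were chosen with earlier results of these data known. All 9 genes were named, and of the other lists every gene called in either experiment. A few that were not called (*S*, *Mkp3*, *stet*, *esg*, *Myo31DF*, *nub*) were added after their values were seen. Chromosomes, exon lengths and overlaps came from a BDGP6 annotation, so no coordinates are given. Promoter motifs and protein features, which were planned, were not analysed here.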

Additional observations from a re-analysis of the deposited data

Results flagged for a closer look

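The RNAi effect minus the mutant effect passed the interaction test in limma for *rho* (4.50 on the log2 scale, adjusted p = 0.00561), *sty* (1.14, adjusted p = 0.00328) and *pnt* (1.12, adjusted p = 0.00221). For each, all *dMPC1-RNAi* libraries were above both mCherry-RNAi libraries and both mutants were below the precise excision library.

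*vn* and *Egfr* were singled out because their libraries also moved in opposite directions in the 2 experiments, *vn* up with RNAi and down in mutants (difference 0.96) and *Egfr* the reverse (difference −0.28). Neither difference passed the interaction test (adjusted p = 0.126 and 0.223 from limma). Such order is common, as 30.8% of all genes tested were above and 31.8% below both controls with RNAi. In mutants 41.2% were above and 38.9% below the control library. The share of all genes with opposite order in the 2 experiments was not counted.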

How the results depend on the processing

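Of the tested genes described, 2 passed with RNAi, and leaving out each library gave 0 to 2. In mutants 0 passed under each alternative run, and between the experiments 3 passed, with 1 to 3 when a library was left out. *rho* passed in 12 of 15 alternatives of the RNAi comparison (log2 fold change 2.35 to 3.95), *pnt* in 13 of 15 (0.78 to 1.14) and *sty* in 2 of 15, with edgeR under upper quartile scaling (0.65, adjusted p = 0.00313) and with limma after scaling to library totals (0.91, adjusted p = 0.00130).

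Scaling to library totals moved the median of all genes to 0.34 (RNAi) and 0.18 (mutants) on the log2 scale, and *Egfr* with RNAi (0.15) and *spi* in mutants (0.094) changed sign under it. With a library left out, *aos* ranged from −0.38 to 0.92 with RNAi and from −0.082 to 1.22 between the experiments, below 0 without mCherry-RNAi replicate 1. In mutants *Ets21C* ranged from −0.16 to 1.00 and *Pvf1* from −0.13 to 0.31, below 0 without mutant replicate 1. The cause was not tested.

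Over all genes, 627 were higher and 599 lower with RNAi. The counts were 392 and 447 with the replicate block, 1726 and 272 after scaling to library totals, and 128 to 895 and 59 to 1040 with a library left out, fewest without mCherry-RNAi replicate 1 and most without *dMPC1-RNAi* replicate 1. In mutants 115 were higher and 210 lower. The counts were 47 and 147 in 1 limma fit of all libraries, 33 and 99 with edgeR (37 and 101 under upper quartile scaling), 318 and 220 after scaling to library totals, and 18 to 28 and 73 to 79 with a library left out. With no filter 0 passed in limma (1842 at an unadjusted p under 0.05). Between the experiments 426 were higher and 351 lower, and 85 to 748 and 36 to 885 with a library left out.

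With replicate number as a block, the RNAi fit gave *rho* 3.02 (adjusted p = 0.00140), *pnt* 0.78 (0.00723) and *sty* 0.60 (0.0279) in limma, and 2 of the genes described passed. Same-numbered libraries did not deviate together (correlations of −0.23 and −0.16), so the numbers were not taken as pairs. The mutant comparison could not be fitted with such a block, because the mutant and precise excision libraries share only 1 number. Mutant replicate 2, with 7362983 reads, limits the mutant values of *rho* (14 reads) and *kek1* (3 reads).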
